A study of Mus musculus with 24 samples.

Results

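The Snrpn imprinted cluster is a group of genes on mouse chromosome 7 that are expressed from the paternal allele, and the methylation of 5 of them, Snrpn, Ndn, Magel2, Mkrn3 and Peg12, was measured here in liver, brain and heart. The unit of measurement was the tile, a stretch of 100 bp whose methylation level is the share of methylated reads at its CpGs. Tiles were taken from 5000 bp upstream of the outermost transcription start to the end of each of the 5 genes, out of 24963 genes in the RefSeq annotation used. There were 101 such tiles among the 819713 of liver, 126 among the 942643 of brain and 128 among the 930358 of heart. In all 3 tables together there were 95 of these tiles, out of 758685 shared tiles, and 134 were in at least 1 table. The levels came from reduced representation bisulphite sequencing (RRBS), in which DNA is cut with restriction enzymes, unmethylated cytosines are converted with bisulphite and the CpGs near the cuts are read.

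All mice were of the inbred strain C57Bl/6J, aged 24 weeks, and their labels name no transgene or treatment. Liver gave 12 libraries, from 6 males and 6 females, and brain and heart gave 6 libraries each. By the paper's account, these came from 3 males and 3 females whose livers were also sampled. Some mouse numbers carry opposite genders in the labels of liver and in those of brain and heart. A piece from the left lobe of the liver, a coronal piece of the front of the brain and the tip of the heart were used, so each level is an average over all cell types of that piece, and a change in cell mixture cannot be told apart from a change within a cell type. The deposited columns are numbered without reference to mouse or gender, so libraries are treated below as replicates of a tissue.

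Library means over all tiles of each tissue were 65.7% to 67.0% in liver, 65.4% to 68.2% in brain and 61.0% to 61.8% in heart. Over the shared tiles heart lay lower by a median of 3.5 points against liver and 3.0 against brain. Liver was above heart in 77.0% of these tiles, and brain was above heart in 69.3%. Pairs of libraries of a tissue correlated across tiles at 0.962 to 0.975 in liver, 0.934 to 0.968 in brain and 0.955 to 0.970 in heart. Of 12 marker genes listed to check the tissue labels, 8 had a promoter level, and 6 of these 8 were lowest in their own tissue. Fgb, a fibrinogen chain made in liver, had 23.4% in liver against 82.7% in brain and 76.8% in heart. Myl2, a myosin light chain of heart muscle, had 46.7% in heart against 88.9% in liver and 80.7% in brain. The exceptions were the neuronal glutamate transporter Slc17a7, at 29.7%, 30.8% and 29.4% in liver, brain and heart, and the heart peptide Nppa, at 80.7%, 37.3% and 73.3%.

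In an imprinted cluster, a control region receives DNA methylation in one parental germ line only, and that mark is kept through development in most tissues and steers which allele is expressed. At Snrpn the region lies at the transcription start and is methylated on the maternal allele, while the paternal allele is unmethylated and expressed. The other genes of the cluster are read from the paternal allele under the same control. Bisulphite reads of bulk DNA from inbred mice mix both alleles without telling them apart, so only the average is seen here. The cluster is best known for its expression in brain and for the human Prader-Willi and Angelman syndromes.

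The genes differ in kind. Snrpn encodes SmN, a brain-enriched protein of the Sm family that takes part in pre-mRNA splicing, and its transcript also carries the Snurf reading frame. Ndn encodes necdin and Magel2 a large relative of it, both of the MAGE protein family. Mkrn3 encodes a makorin zinc finger protein of the ubiquitin ligase class, and Peg12 encodes a FRAT family protein that binds the kinase GSK3. On the mm10 build (GRCm38) Snrpn (GeneID 20646) lies on the minus strand at chr7:59982495-60450177 and has 6 curated start sites, so its region is by far the longest and held 94 of the 134 tiles. The other genes have a single exon and a single start. Ndn (GeneID 17984) is on the plus strand at chr7:62348277-62349928, and so is Magel2 (GeneID 27385) at chr7:62376979-62381640. Mkrn3 (GeneID 22652) is on the minus strand at chr7:62417593-62420153, and so is Peg12 (GeneID 27412) at chr7:62461871-62464510.

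The sequences of 10 tiles that the results turn on are printed first, read 5′ to 3′ from the plus strand of mm10. Capitals mark the CpGs, the only positions that contribute to a tile's level, and a capital C at the end of a tile is a CpG whose G is the first base of the next tile. The first pair is from the intermediate stretch at the Snrpn start, and the next pair is from its far upstream introns, where the lowest level and the largest tissue difference were found. The Ndn tile is its lowest. The trio from Magel2 follows its coding sequence from low to high level, and the pair from Mkrn3 lies on either side of a similar change.
Snrpn, chr7:60004801-60004900: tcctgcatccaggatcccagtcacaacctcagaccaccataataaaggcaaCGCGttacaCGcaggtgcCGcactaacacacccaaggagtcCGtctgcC
Snrpn, chr7:60005201-60005300: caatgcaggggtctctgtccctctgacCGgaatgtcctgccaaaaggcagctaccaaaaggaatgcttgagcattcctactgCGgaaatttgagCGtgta
Snrpn, chr7:60169401-60169500: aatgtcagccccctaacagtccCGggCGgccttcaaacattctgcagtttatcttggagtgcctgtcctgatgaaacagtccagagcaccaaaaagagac
Snrpn, chr7:60314301-60314400: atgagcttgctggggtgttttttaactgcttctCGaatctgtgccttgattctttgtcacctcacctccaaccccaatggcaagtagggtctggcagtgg
Ndn, chr7:62348501-62348600: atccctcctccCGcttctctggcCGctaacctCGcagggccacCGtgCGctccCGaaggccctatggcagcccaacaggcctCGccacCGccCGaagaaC
Magel2, chr7:62377501-62377600: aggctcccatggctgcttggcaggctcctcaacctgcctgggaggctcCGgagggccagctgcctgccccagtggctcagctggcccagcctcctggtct
Magel2, chr7:62377701-62377800: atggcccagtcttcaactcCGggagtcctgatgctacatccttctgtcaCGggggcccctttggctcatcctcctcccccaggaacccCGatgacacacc
Magel2, chr7:62377901-62378000: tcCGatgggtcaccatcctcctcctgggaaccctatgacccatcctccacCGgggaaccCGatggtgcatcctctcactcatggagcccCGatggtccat
Mkrn3, chr7:62419901-62420000: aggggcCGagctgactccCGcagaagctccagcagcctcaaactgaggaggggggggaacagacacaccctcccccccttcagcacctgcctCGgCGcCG
Mkrn3, chr7:62419301-62419400: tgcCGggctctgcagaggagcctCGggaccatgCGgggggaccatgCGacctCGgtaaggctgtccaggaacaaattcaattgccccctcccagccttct
The Snrpn tiles show how unevenly CpGs are spread, since the tile at 60004801 holds 6 and the tile at 60314301 holds 1.

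The promoters of all 5 genes carried more methylation than the middle promoter of the genome in every tissue. A promoter level is the mean over the tiles within 1000 bp of a transcription start, and the medians over 20984 such starts were 3.74% in liver, 3.14% in brain and 2.91% in heart. Snrpn, over 5 tiles, had a mean of 44.5% ± 3.66 in the liver libraries, 41.0% ± 1.63 in those of brain and 39.6% ± 4.63 in those of heart (SD, n = 12, 6 and 6, as for every value below). The 12 liver libraries ran from 39.0% to 49.9% around a median of 44.1%, the brain libraries from 39.4% to 43.7% around 40.5%, and the heart libraries from 34.6% to 47.2% around 39.1%. All 3 ranges overlap.

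Magel2 came next, with 43.8% ± 2.92 in liver, 36.5% ± 2.59 in brain and 35.4% ± 1.59 in heart over 8 tiles. Those 8 tiles all lie inside its exon, 271 to 971 bp from the start. Their liver means ran from 17.3% to 90.3%, with the low ones nearest the start, so the average is not a level shared by the tiles. Mkrn3 had 38.7% ± 2.67, 28.8% ± 2.03 and 38.0% ± 2.17 over 9 tiles, so that brain was the low tissue there. Its highest brain library, at 32.0%, lay below its lowest liver library at 34.7% and its lowest heart library at 34.2%. Liver means of the 9 Mkrn3 tiles ran from 10.7% to 84.2%, and those around the start were low. Ndn had 25.1% ± 4.18, 29.2% ± 2.77 and 20.8% ± 1.44 over 4 tiles. Peg12 was the lowest of the 5, with 15.1% ± 2.35, 17.8% ± 1.73 and 11.6% ± 1.43 over 7 tiles. In liver the ranges of Snrpn and Magel2, 39.5% to 47.7% for the latter, overlap almost wholly, and Mkrn3 at 34.7% to 42.3% overlaps both, whereas Ndn (17.1% to 31.8%) lies below all of these and Peg12 (10.9% to 19.8%) overlaps the low end of Ndn.

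**Figure D1:**
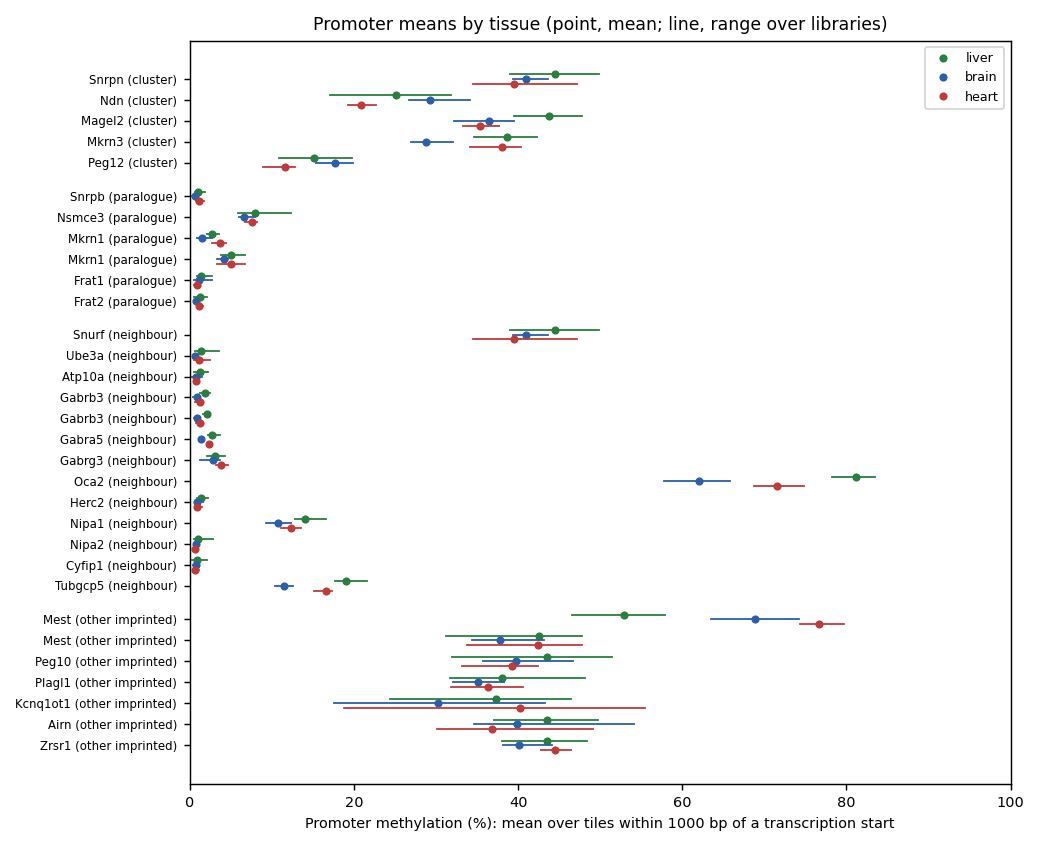
Promoter methylation in percent (x axis) of the cluster genes and of the genes set beside them (y axis) in liver, brain and heart; points are means over the libraries of a tissue and lines run from the lowest to the highest library. Snrpn and Magel2 sit between 35.4% and 44.5% in all tissues, Peg12 between 11.6% and 17.8%, and the related genes outside the cluster below 8%. The Magel2 and Mkrn3 levels average low tiles nearest the start with higher tiles further into the coding sequence.

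The related genes that lie outside the cluster had low promoters. Snrpb, the Sm protein gene most like Snrpn, had 1.02% (liver), 0.61% (brain) and 1.18% (heart). Nsmce3, a MAGE family gene like Ndn and Magel2, had 7.90%, 6.63% and 7.62%, the highest of these relatives. Frat1 and Frat2, the relatives of Peg12, had 1.38% and 1.19% in liver and at most 1.17% in brain and heart, and both starts of Mkrn1 had between 1.51% and 5.01%. No promoter value was obtained for Mkrn2.

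The differences between tissues at the cluster promoters were modest. A difference was called where limma gave an adjusted p of 0.01 or less (Benjamini-Hochberg over all promoters) and the tissues differed by at least 25 percentage points. None of the 5 promoters was called in any comparison, against 3.63% of all promoters between liver and brain, 3.57% between liver and heart and 2.33% between brain and heart. Without the size criterion, 2 of 5 passed between liver and brain, 2 between liver and heart and 3 between brain and heart, beside 39.4%, 37.4% and 24.9% of all promoters. At an unadjusted p under 0.05 the counts were 4, 4 and 3 of 5. The share of all promoters at that cut was not counted, so these counts have nothing to be set beside.

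Mkrn3 differed most: liver lay 9.90 points above brain (SE 1.17, limma adjusted p = 1.7e-07) and heart lay 9.21 points above brain (SE 1.36, adjusted p = 7.77e-06), and the difference of 0.69 between liver and heart did not pass. Magel2 in liver was 7.37 points above brain (SE 1.25, adjusted p = 2.79e-05) and 8.44 above heart (SE 1.25, adjusted p = 5.22e-06). Ndn was 8.40 points higher in brain than in heart (SE 1.90, adjusted p = 0.00112). Peg12 was 3.57 points higher in liver than in heart (SE 0.98, adjusted p = 0.0043) and 6.20 higher in brain than in heart (SE 1.14, adjusted p = 0.000122). For Snrpn the differences were 3.5 points between liver and brain (SE 1.73, adjusted p = 0.104), 4.92 between liver and heart (SE 1.73, adjusted p = 0.0229) and 1.42 between brain and heart (SE 2.0, adjusted p = 0.679), and none passed. With a window of 500 bp in place of 1000 bp the Mkrn3 differences turned direction, to -2.73, -1.36 and 1.37 for liver minus brain, liver minus heart and brain minus heart. That window leaves out its coding sequence further in, which is described below. In Magel2 the window of 500 bp moved liver minus brain from 7.37 to 1.17 points and brain minus heart from 1.07 to 5.03. In Ndn it leaves out the tile at 62347201, and liver minus brain moved from -4.16 to 0.92. Liver minus heart in Ndn moved from 4.25 to 7.15.

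Tiles of intermediate methylation, with a mean between 35% and 65% in each of the 3 tissues, were 13 of the 95, or 13.7%, beside 2.95% of all shared tiles. Snrpn had 9 of them, Magel2 had 3 and Ndn had 1, and Mkrn3 and Peg12 had none. Where at least 2 such tiles lay within 500 bp of each other with no tile outside the range between them, they were joined to a stretch. The cluster held 3 stretches, of which 2 were in Snrpn and 1 in Magel2. The same rule gave 1315 stretches over all autosomes, of which 133 had at least 3 tiles and 27 at least 4.

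The longest one in the cluster covered the main transcription start of Snrpn, which 3 of its transcripts use and which Snurf shares. It ran from chr7:60004801 to 60005300, 500 bp with 4 tiles and 22 CpGs, from the sequence just upstream of the start across the first exon of these transcripts into the intron. Liver libraries had 39.3% to 52.2% over these tiles with a median of 45.9%, brain libraries 39.1% to 44.1% with a median of 41.3%, and heart libraries 35.3% to 50.5% with a median of 40.3%. The means were 46.1% ± 4.04, 41.5% ± 2.32 and 40.9% ± 5.60, and the ranges of all tissues overlap. Averaged over the 4 tiles, no library of any tissue was below 35.3% or above 52.2%. In single tiles the libraries spread more widely. The tile at 60004801 ran from 25.8% to 58.7% in the liver libraries and from 22.4% to 43.6% in those of brain. The tile at 60005201 ran from 24.6% to 56.2% in the heart libraries.

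The means of the 4 tiles ran from 45.4% to 47.1% in liver, from 37.3% to 45.2% in brain and from 39.8% to 42.7% in heart. In the middle of the stretch, the tile at chr7:60005001-60005100, with 4 CpGs, had 35.6%, 44.2% and 57.5% as the lowest, median and highest of the liver libraries. Brain libraries had 38.2%, 41.9% and 44.5% there, and heart libraries 34.0%, 40.4% and 45.9%. Its liver mean of 45.4% was 3.77 points above brain (SE 2.47, limma adjusted p = 0.252) and 5.36 above heart (SE 2.47, adjusted p = 0.0802), and brain was 1.58 above heart (SE 2.85, adjusted p = 0.718). The tile at chr7:60004601-60004700, further into the intron, fell just outside the rule with 38.0% in liver, 38.9% in brain and 34.1% in heart.

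The stretch at the Snrpn start held 3 copies of TGCCGC, the core hexamer bound by ZFP57, a zinc finger protein that keeps imprinted methylation. Both strands were searched, and the hexamer contains neither TCGA nor CCGG, the sites described further on. One copy can be seen in the tile at 60004801 printed above. Of all shared tiles, 2.58% held the hexamer on either strand, and 11.6% of 31396 autosomal RefSeq promoter windows did. Among all intermediate tiles with 5 or more CpGs the share was 6.8%. These shares are per tile or window, whereas the stretch spans 500 bp. Of the 13 intermediate tiles in the cluster 2 held it, both in this stretch, and the other stretches held none. Outside the intermediate tiles, the Snrpn tiles at 60004501 and 60004601 and the Mkrn3 tile at 62419201 also held it. A match describes the letters and says nothing of binding.

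**Figure D2:**
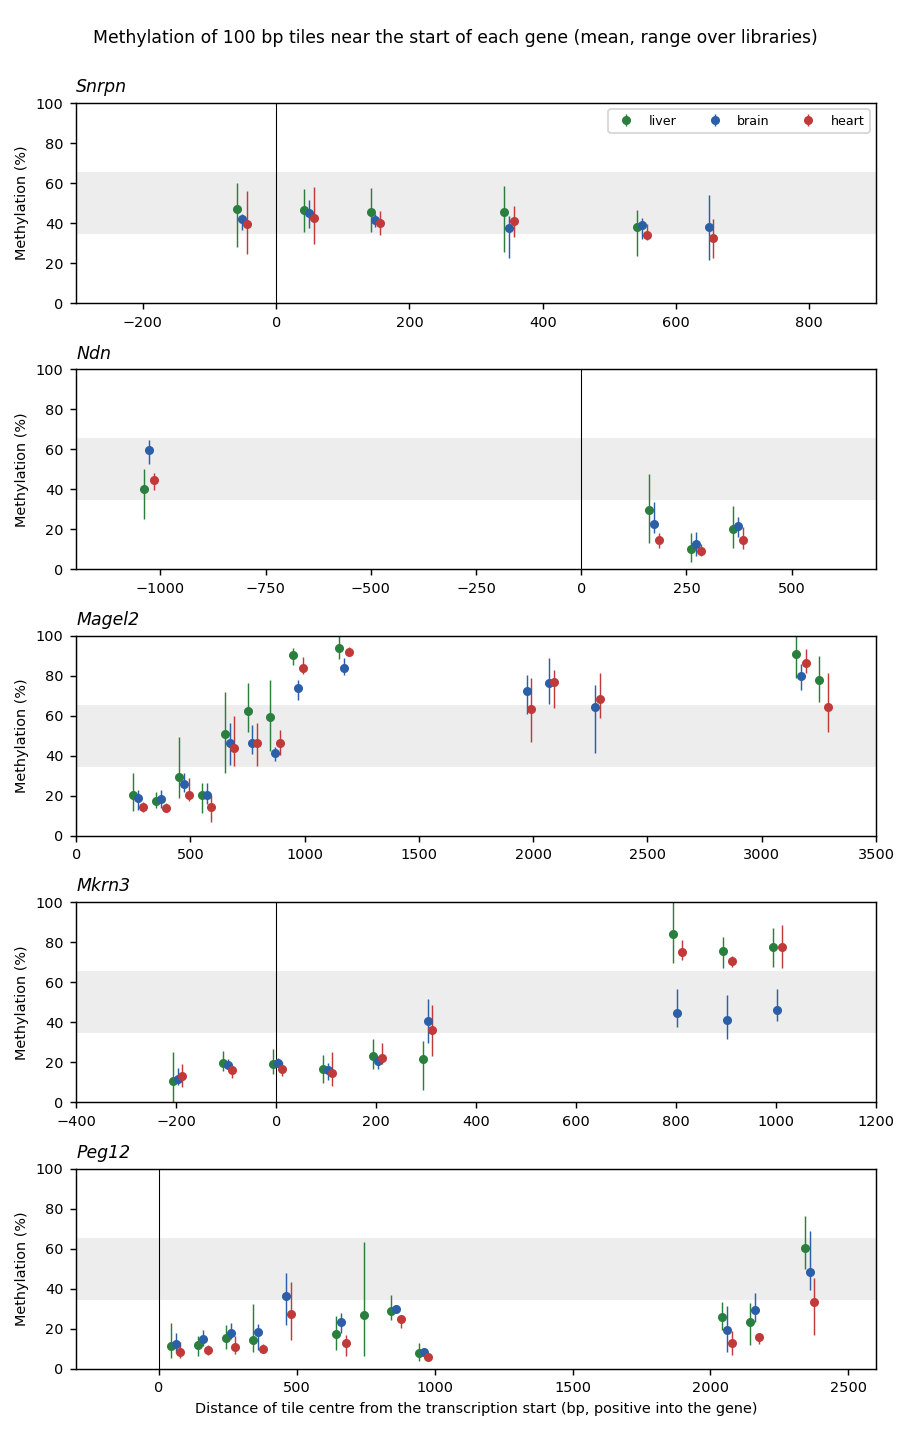
Methylation in percent (y axis) of tiles near the transcription start of each gene, against the distance of the tile centre from the start in bp (x axis, positive into the gene); points are tissue means, lines run from the lowest to the highest library, and the grey band marks 35% to 65%. The Snrpn means stay in or at the edge of the band across its start, while single libraries reach further. Magel2 climbs from 14% to 21% at 571 bp to over 73% at 971 bp. The Mkrn3 tiles at 803 to 1003 bp are lower in brain than in liver and heart.

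Upstream of that start the picture changed. Of the 62 Snrpn tiles present in all tables, 57 lay further upstream, across the long introns of the transcripts that start there. The median of these 57 was 77.8% (liver), 78.8% (brain) and 68.2% (heart), and 39, 40 and 29 of them exceeded 65%. The highest was chr7:60172301-60172400, with means of 96.0%, 94.2% and 94.1% and no library under 86.7%. The lowest was chr7:60314301-60314400, 309 kb upstream, with a single CpG. Its liver libraries ran from 0% to 34.6% with a median of 13.2%, its brain libraries from 16.9% to 36.7% with a median of 24.4%, and its heart libraries from 6.20% to 15.1% with a median of 8.25%.

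The other Snrpn stretch, at chr7:60068201-60068400 in an intron 63.1 kb upstream, had only 2 tiles and 4 CpGs. Its means were 50.9% ± 5.26 in liver, 61.0% ± 4.0 in brain and 44.9% ± 6.71 in heart, so that brain lay highest. In its tile at 60068201 the lowest, median and highest libraries were 33.8%, 53.7% and 64.2% in liver, 49.2%, 61.0% and 68.0% in brain and 30.8%, 42.9% and 50% in heart. Brain exceeded heart there by 19.4 points (SE 4.49, adjusted p = 0.00121), with 1 narrow overlap of the ranges between 49.2% and 50%.

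Many of the far upstream tiles of low or intermediate level had a CpG in TCGA, the recognition site of the enzyme TaqI. Which enzymes were used is not given in the sources used here, and whether the site has a part in the levels was not tested. Of all 57 upstream Snrpn tiles, 31 held a CpG in TCGA. In liver, 11 of the 13 upstream Snrpn tiles between 35% and 65% and 4 of the 5 below 35% held one. In brain these counts were 12 of 15 and 2 of 2, and in heart 10 of 17 and 9 of 11. Over all shared tiles with a single CpG, those with the CpG in TCGA had medians of 71.6% in liver, 74.7% in brain and 60.3% in heart, and those with it in CCGG, the MspI site, had 86.1%, 84.4% and 77.8%. The share of intermediate tiles was 8.01% for the former and 2.35% for the latter. The gap was wider in Snrpn, where 18 single-CpG tiles in TCGA had medians of 51.9%, 56.4% and 41.8% and 11 in CCGG had 84.8%, 88.0% and 77.1%. TCGA tiles made up 50% of the Snrpn tiles, beside 38.1% of all shared tiles.

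This split touches the count of intermediate tiles. Of the 13, 6 hold a CpG in TCGA, and without such tiles 7 remain: the 4 at the Snrpn start, the tile at 60068301 and the Magel2 tiles at 62377601 and 62377701. These 7 are 11.9% of the 59 cluster tiles without a CpG in TCGA, beside 1.85% of all shared tiles without one. The stretch at the Snrpn start held no TCGA site with a CpG and was the same with TCGA tiles left out. Of the far upstream Snrpn tiles, 5 were intermediate, and 4 of these 5 had their only CpG in TCGA.

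**Figure D3:**
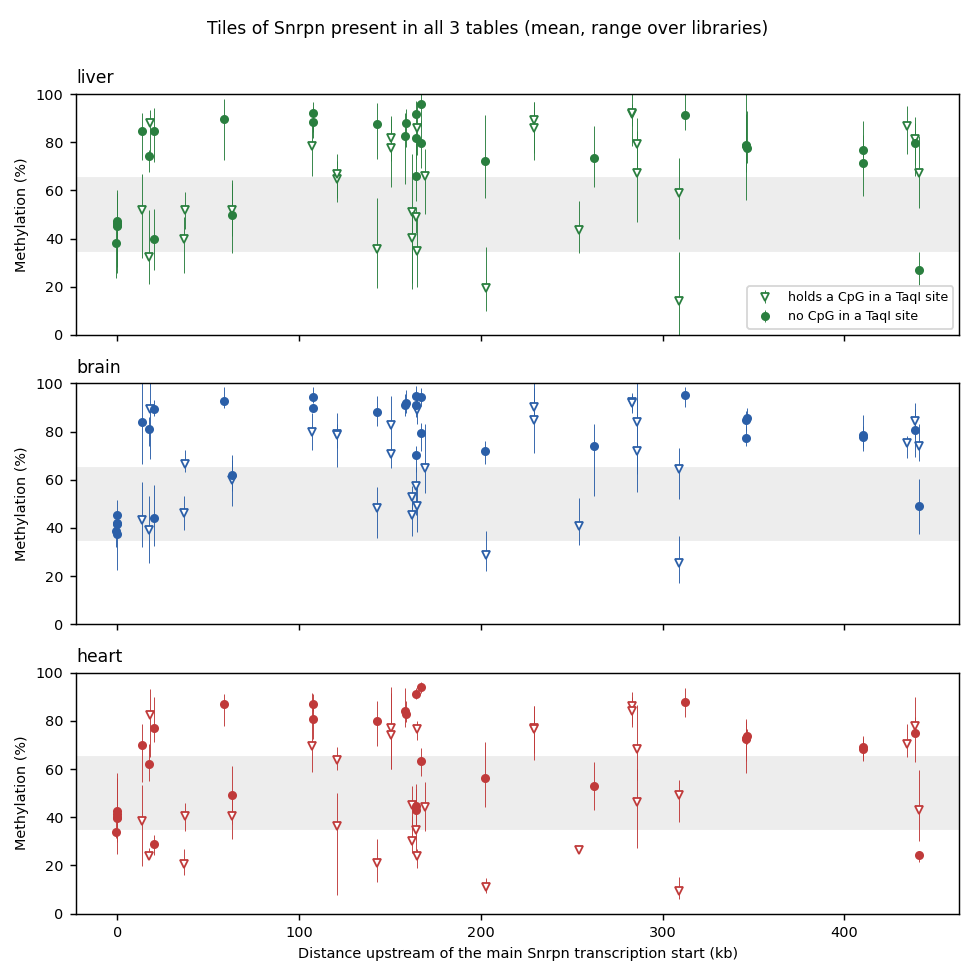
Methylation in percent (y axis) of the 62 Snrpn tiles shared by all tables against the distance upstream of the main start in kb (x axis), 1 panel per tissue; points are means, lines run from the lowest to the highest library, the grey band marks 35% to 65%, and open triangles are tiles with a CpG in a TaqI site. The means of the tiles at 0 kb sit together in or at the edge of the band. Most of those further out lie above it, fewer in heart (29 of 57) than in liver (39) or brain (40).

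**Figure D4:**
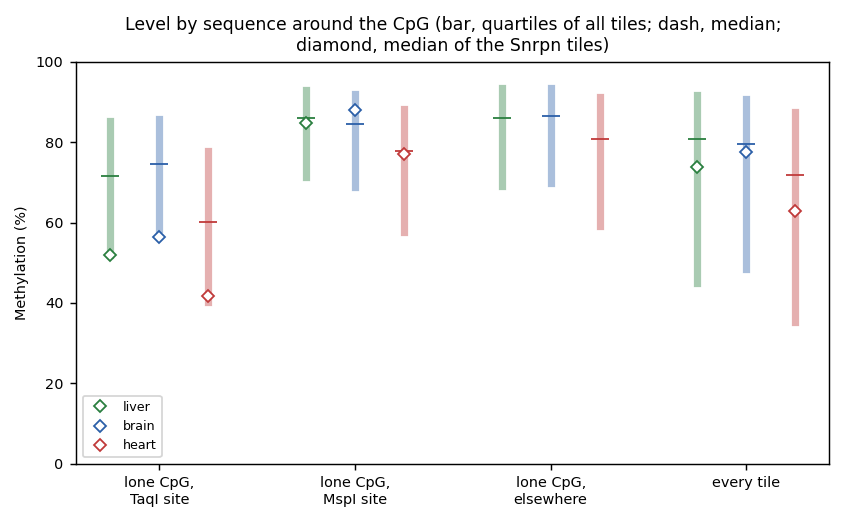
Methylation in percent (y axis) by the site around the CpG (x axis) in each tissue, for tiles with a single CpG and for every shared tile; bars span the quartiles and dashes mark the medians of all shared tiles, and diamonds mark the medians of the Snrpn tiles. The Snrpn diamonds lie below the dashes for the TaqI site (51.9% against 71.6% in liver) and close to them for the MspI site (84.8% against 86.1%).

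Between tissues, the tiles of the cluster were called by the same rule as the promoters, over all 758685 shared tiles. Between liver and brain 3 of 95 were called, or 3.16%, beside 9.80% of all tiles. All 3 were Mkrn3 tiles with liver higher, where 5.04% of all tiles were called with liver higher and 4.76% with brain higher. Liver against heart also gave 3 of 95, beside 10.8%. These were 2 Snrpn tiles and 1 Peg12 tile, again with liver higher, beside 7.94% of all tiles with liver higher and 2.87% with heart higher. Brain against heart gave 13, or 13.7%, beside 9.46%. The direction of the 13 was split by gene: 10 were Snrpn tiles with brain higher, where 7.71% of all tiles were called in that direction, and 3 were Mkrn3 tiles with heart higher, where 1.75% were.

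Libraries of liver and brain did not overlap in 8 of the 95 tiles (8.42%, beside 14.7% of all tiles). Liver and heart did not overlap in 8 either (beside 18.5%), with liver higher in every one of them. Brain and heart did not overlap in 30 (31.6%, beside 20.8%), and brain was higher in 25 of these 30. The shares over all tiles are for either direction, and no share by direction was counted. Over all tiles liver was above heart in 77.0% and brain in 69.3%, so a lean toward lower heart is not particular to the cluster. The median difference over the 95 tiles was -1.26 points for liver minus brain, 6.20 for liver minus heart and 7.68 for brain minus heart, beside 0.28, 3.5 and 3.0 over all tiles. The liver and brain comparisons with heart share the heart libraries.

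The 10 Snrpn tiles called with brain above heart lay between 36.9 and 441 kb upstream of the main start. The largest difference was at chr7:60169401-60169500, 164 kb upstream in an intron, whose 2 CpGs lie in or next to a CCGG site and not in TCGA. The lowest, median and highest liver libraries had 73.1%, 82.2% and 87.1%, the brain libraries 86.2%, 90.6% and 96.9%, and the heart libraries 35.7%, 43.6% and 53.8%. Heart stood apart from both other tissues with no overlap. Brain exceeded heart by 46.7 points (SE 2.97, limma adjusted p = 2.84e-11) and liver exceeded heart by 37.4 points (SE 2.57, adjusted p = 2.41e-11). The adjoining tile at 60169301 showed the same order at a lower level, with means of 49%, 57.3% and 34.6%, but its difference of 22.7 points between brain and heart stayed under the size criterion.

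At chr7:60126201-60126300, the other Snrpn tile called for both liver and brain against heart, brain had 78.7% ± 7.77, liver 66.7% ± 6.34 and heart 36.3% ± 17.6. The heart libraries spread from 7.70% to 50% there, all below the liver libraries (55.1% to 75%) and the brain libraries (65.4% to 87.5%). The tile at chr7:60446201-60446300, near the outermost start, was high in brain alone among the 3, with 37.5% to 60.3% there, 20.9% to 34.3% in liver and 21.2% to 25.8% in heart. Of the 10 Snrpn tiles called between brain and heart, 7 hold a CpG in TCGA, and among all tiles called in that comparison 44.6% do. Without TCGA tiles, 6 of 59 tiles of the cluster were called between brain and heart, or 10.2%, beside 8.46% of all such tiles.

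Ndn was low in its coding sequence and intermediate upstream. Its lowest tile, chr7:62348501-62348600, with 10 CpGs, had 3.90%, 10.1% and 18.1% as the lowest, median and highest liver libraries, 6.5%, 13.3% and 18.7% in brain and 6.90%, 9.35% and 12.8% in heart. The tiles to either side had means of 29.9%, 22.6% and 14.5% (at 62348401) and 20.3%, 21.9% and 14.9% (at 62348601) in liver, brain and heart. The single tile upstream, chr7:62347201-62347300, 1027 bp before the start, has both of its CpGs in TCGA. Its libraries had 25% to 50% in liver, 52.9% to 64.6% in brain and 39.8% to 48.0% in heart, so that brain did not overlap the other tissues. Brain was 19.4 points above liver there (SE 2.95, adjusted p = 8.81e-06) and 14.9 above heart (SE 3.40, adjusted p = 0.00102), both short of 25 points.

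Over the first 1171 bp of its single exon Magel2 rose in steps. The 4 tiles from 62377201 to 62377600, which hold its 5′ UTR and the beginning of the coding sequence, had means of 17.3% to 29.2% in liver, 18.6% to 25.7% in brain and 13.7% to 20.2% in heart. The lowest of them was chr7:62377301-62377400, with 13.7%, 17.0% and 21.8% as the lowest, median and highest liver libraries, 13.7%, 18.5% and 22.8% in brain and 12.4%, 13.4% and 16.6% in heart. In the next 3 tiles, the stretch chr7:62377601-62377900 with 9 CpGs, the means were 57.7% ± 5.37, 44.7% ± 4.18 and 45.5% ± 3.58. From 62377901 on, the 3 shared tiles had 90.3% to 94.0% in liver, 73.8% to 84.2% in brain and 84.2% to 92.0% in heart. Between and beyond these lay 4 tiles missing from 1 of the tables. Of them, 3 had 64.2% to 76.6% in brain, overlapping the shared tiles, and 63.3% to 77.1% in heart, below them. The last, at 62380201, had 78.0% in liver and 64.4% in heart, also below the shared tiles. The printed tiles at 62377501, 62377701 and 62377901 hold 1, 3 and 4 CpGs, but the other low tiles hold 5 or 6, so the number of CpGs did not follow the steps.

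In the middle tile of the Magel2 stretch, chr7:62377701-62377800, the liver libraries ran from 52.0% to 76.6% with a median of 62.5%, the brain libraries from 40.9% to 55.6% with a median of 45.7% and the heart libraries from 34.8% to 56.5% with a median of 45.4%. Liver overlapped both tissues only at its low end. It was 16.1 points above brain (SE 3.17, adjusted p = 0.000224) and 15.9 above heart (SE 3.17, adjusted p = 0.000215), and brain and heart differed by -0.15 (SE 3.66, adjusted p = 0.983). The highest tile, chr7:62378101-62378200, had 94.0% in liver, 84.2% in brain and 92.0% in heart, with liver 9.80 points above brain (SE 1.53, adjusted p = 1.29e-05) and heart 7.85 above brain (SE 1.77, adjusted p = 0.00092). No Magel2 tile reached the 25 points, while 5 of its 10 passed the adjusted p alone between liver and brain, 3 between liver and heart and 3 between brain and heart, beside 30.3%, 36.3% and 32.1% of all tiles.

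Mkrn3 had the clearest difference of brain from both other tissues. Its 5 tiles from 62419901 to 62420400, which cover the start, had means between 10.7% and 23.1% in every tissue. The lowest, chr7:62420301-62420400, upstream of the start, had 0% to 25% in the liver libraries, 8.80% to 17.1% in brain and 7.5% to 18.9% in heart, with medians of 9.55%, 11.4% and 13.6%. The tile at 62419801, in the coding sequence, went the other way from those further in: it had 21.6% in liver, 40.5% in brain and 36.1% in heart, and brain was 19 points above liver (SE 4.03, adjusted p = 0.000505).

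Further in, the 3 coding tiles from 62419101 to 62419400, with 13 CpGs, had 75.6% to 84.2% in liver, 70.6% to 77.6% in heart and 41.2% to 46.3% in brain. At chr7:62419301-62419400 the lowest, median and highest libraries were 69.7%, 84.8% and 100% in liver, 37.5%, 39.9% and 56.5% in brain and 71.2%, 74.5% and 80.9% in heart. Every brain library lay below every liver and heart library in each of the 3 tiles. At this tile liver exceeded brain by 39.7 points (SE 3.55, limma adjusted p = 2.22e-09). The tile at chr7:62419101-62419200 differed most between brain and heart, with 40.7% to 56.4% in brain and 67.1% to 88.6% in heart, a difference of -31.3 points (SE 4.04, adjusted p = 1.31e-06). These 3 tiles were the only ones of the cluster called between liver and brain, and none of them has a CpG in TCGA. Liver and heart differed by 0.11 to 9.29 points over them, and none of these was called.

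Peg12 was low along most of its coding sequence. Its coding tile at 62464001, not covered in liver, had 36.2% in brain and 27.45% in heart. The lowest tile of the cluster, chr7:62463501-62463600 with 4 CpGs, had 3.70%, 7.40% and 12.6% as the lowest, median and highest liver libraries, 5.60%, 8.15% and 10.2% in brain and 3.60%, 5.30% and 7.40% in heart. The tile next to it at 62463601 was higher, with 28.6%, 29.8% and 24.6%, and had no overlap between brain and heart. The highest of the tiles shared by all tables was chr7:62462101-62462200 in the 3′ UTR, with 1 of its 3 CpGs in TCGA. Its libraries had 50% to 76.3% in liver with a median of 58.5%, 39.4% to 69.0% in brain with a median of 44.6% and 16.7% to 45.5% in heart with a median of 34.2%. Liver exceeded heart by 27.0 points without overlap (SE 4.72, adjusted p = 4.64e-05), which was the only call in Peg12. An upstream tile at 62469001, not covered in liver and with both CpGs in TCGA, had 50.6% in brain and 33.3% in heart.

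How far the libraries of a tissue spread at the intermediate tiles was set beside all such tiles of the series. The median SD over libraries was 8.65 points in liver, 5.50 in brain and 7.69 in heart for the 13 tiles of the cluster, and 8.31, 8.31 and 6.84 for all 22391. The read depth per tile is unknown, so how much of this spread is counting error cannot be given.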

How the data were processed

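RRBS libraries of liver (12), brain (6) and heart (6) were prepared, sequenced and mapped by a service with its own methods. The submitters' notes name Bismark, methylKit and mm10. Per the study's methods, the authors combined CpG calls with methylKit 0.99.2 in tiles of 100 bp, required more than 10 reads in every sample of a tissue, removed coverage over the 99.8th percentile, and deposited 1 table per tissue. The values the authors deposited are fractions of methylated reads, not normalised between samples and without read counts, so depth is unknown and no counting interval can be given. Fractions are printed as percent. All tables hold autosomes.

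Between 99.8% and 99.9% of tiles hold a CpG on mm10. Genes and annotation are from RefSeq (GRCm38). Tissue levels are means over all columns of a table. Tiles in all 3 tables, and promoter means with at least 2 tiles, were tested with limma 3.58.1 in R 4.3.3 on the fractions, with all 24 libraries in one fit and Benjamini-Hochberg adjustment over all tiles or promoters. The thresholds (0.01 and 25 points) are those of the study's methods. The code was tested on simulated data. Tissues of a mouse were treated as independent, since the columns name no mouse, and p-values measure the spread between libraries only.

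Named tiles were the lowest and highest of each gene, the largest called difference per pair of tissues and the middle of each stretch. Further tiles (the neighbours of these, the Magel2 and Mkrn3 steps, the Snrpn tiles at 60126201 and 60446201, and the Peg12 tiles at 62464001 and 62469001) were chosen after their values were seen. The genes and lists were chosen with earlier results of these data known. Positions are 1-based. Tiles with a CpG in TCGA were left out in an alternative added after seeing the data.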

Additional observations from a re-analysis of the deposited data

Results flagged for a closer look

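One value of the 46 sets of 6 libraries examined lay far from the others of its set. It was the highest heart library at the Magel2 tile chr7:62377301-62377400, with 16.6% against 13.9% in the next. Chance alone gives such a value in about 5% of sets. Differences between male and female libraries were not examined, because the columns carry no gender.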

How the results depend on the processing

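The read coverage is unknown, so no other coverage minimum could be tried. No paired analysis was possible because the columns carry no mouse number that would tie the libraries of a mouse across tissues. The calls between tissues were 3, 3 and 13 of 95 tiles for liver against brain, liver against heart and brain against heart. A logit scale gave 3, 3 and 12, and the fit of only the tissues compared and a variance prior with a trend both gave 3, 3 and 13. A size criterion of 10 points raised them to 15, 24 and 35 (15.8%, 25.3% and 36.8%, beside 24.5%, 28.6% and 27.4% of all tiles). With tiles holding a CpG in TCGA left out, a choice made after seeing the data, the last 2 counts were 1 and 6 of 59 (1.69% and 10.2%, beside 11% and 8.46% of all such tiles). None of the 5 promoters was called with windows of 500, 1000 or 2000 bp. The 13 intermediate tiles became 18 with a range of 30% to 70% and 7 with a range of 40% to 60%. The share of all tiles was not counted for either of these ranges. Without TCGA tiles the 13 became 7 (11.9%, beside 1.85% of all such tiles). The 3 stretches became 1 with that narrower range, at the Snrpn start, and 2 without TCGA tiles. Under a window of 500 bp the promoter difference of liver minus brain turned from -4.16 to 0.92 in Ndn and from 9.90 to -2.73 in Mkrn3. In Mkrn3 liver minus heart turned from 0.69 to -1.36 and brain minus heart from -9.21 to 1.37. Fewer tiles enter that window.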

Other observations

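The genes around the cluster on chromosome 7 gave a contrast in level. The ubiquitin ligase Ube3a, which is imprinted in neurons, had a promoter mean of 1.37% in liver, 0.60% in brain and 1.16% in heart, and the phospholipid transporter gene Atp10a had 1.22%, 0.77% and 0.78%. Gabra5 and Gabrg3, subunits of the GABA-A receptor, had 2.76%, 1.40% and 2.36%, and 3.02%, 2.89% and 3.78%. Herc2, Nipa2 and Cyfip1 were at or below 1.35% in every tissue. Nipa1 had 14.0%, 10.8% and 12.4%, and Tubgcp5 had 19%, 11.5% and 16.6%, close to Peg12 in level. The pigmentation gene Oca2 was the one highly methylated promoter of the neighbours listed, with 81.1%, 62.1% and 71.6%. Snurf, which shares the Snrpn start, had the values of Snrpn, and Snhg14 had no promoter value.

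Promoters of other imprinted genes, listed for comparison, had tissue means of 30.3% to 44.5% in every tissue except at 1 of the starts of Mest. Peg10 had 43.5% in liver, 39.7% in brain and 39.2% in heart, Plagl1 had 38.1%, 35.1% and 36.3%, and Zrsr1 had 43.5%, 40.1% and 44.5%. The antisense transcripts Airn and Kcnq1ot1 had 43.5%, 39.8% and 36.9%, and 37.3%, 30.3% and 40.3%. Single libraries spread more widely at Kcnq1ot1, which had 2 tiles, from 17.6% to 43.3% in brain and from 18.8% to 55.5% in heart. Mest had 42.6%, 37.8% and 42.5% at one start and 53.0%, 68.9% and 76.7% at another, and Peg3 had no promoter value. Over all 20984 promoters, 9.60% had a mean between 15% and 60% in all 3 tissues.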
